A study of Homo sapiens with 8 samples.

Results

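H3K9me3 domains of drug-tolerant PC9 persisters were compared, interval by interval, before and after a short exposure to trichostatin A (TSA). The domains described are those found in both states, defined as intervals of 1 list that overlapped an interval of the other by at least 1 bp. They numbered 34263 of the 47866 intervals in persisters and 35118 of the 53000 in persisters given TSA. PC9 is an established line of human lung adenocarcinoma with an activating EGFR mutation. Persisters (DTP) were the PC9 cells left after 8 days in 1 uM erlotinib, an EGFR kinase inhibitor. The DTP + TSA cells had the same erlotinib exposure and received 50 nM TSA for 5 hours on the last day, so both states carry the drug and by their labels differ in TSA. Untreated parental cells enter below only through their own list of 23842 intervals. Each state had 1 H3K9me3 library with 1 deposited list of intervals on hg19, so replicate error is unknown for every difference below and no test was run. The labels do not say whether the states were grown or prepared side by side.

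H3K9me3 marks constitutive heterochromatin. It is written by methyltransferases such as SUV39H1 and SETDB1, is bound by HP1 proteins, and keeps satellites, retrotransposons and clusters of zinc finger genes silent. TSA inhibits histone deacetylases, which remove the acetyl groups that have to leave lysine 9 before it can be methylated. Domains of the mark are broad, so a change can lie in their borders, in their continuity, in the position of the highest signal or in their strength relative to other domains of the same library. Each was measured in turn.

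The shared domains were the longer and stronger part of each list. Their median length was 3000 bp in DTP and 2600 bp in DTP + TSA, against 1800 bp for the intervals of either list without a counterpart. Strength was compared only as a percentile of the deposited mean or summit value among all intervals of the same library, because the lists give neither read totals nor a stated scaling. The median mean-value percentile of shared domains was 60.1 in DTP and 55.1 in DTP + TSA. Intervals without a counterpart stood at 26.8 in DTP and at the higher 41.3 in DTP + TSA. The unshared intervals among which shared domains are ranked were thus stronger in the DTP + TSA list, and changes in percentile are read below between classes of domains rather than against 0. At the edge of the overlap rule, 66 DTP and 76 DTP + TSA intervals touched the other list over a single step of the 200 bp grid on which all borders lie. Just outside it, 550 and 583 intervals lay within 1 kb of the other list without touching it, with a median length of 2000 bp in each list.

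Most shared domains kept their identity as single blocks. Overlapping intervals were gathered into 33063 connected groups, and 30481 of these (92.2%) held 1 interval of each library, here called one-to-one pairs. In 822 groups (2.49%) at least 2 DTP intervals lay under 1 DTP + TSA interval, called joined. In 1522 groups (4.60%) 1 DTP interval lay over at least 2 DTP + TSA intervals, called divided. The other 238 groups held several intervals of both libraries. Divided groups thus outnumbered joined ones, an order that turned when intervals of a list within 5 kb were first merged (507 joined and 417 divided). Most of either kind involved 2 pieces, in 1438 divided and 756 joined groups. Summed over all groups the shared length was 136.5 Mb in DTP and 135.1 Mb in DTP + TSA, a ratio of 0.99, so the opposite changes described below nearly cancelled in the total.

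Within the one-to-one pairs shortening was the more common change. After TSA 11571 pairs (38.0%) were longer by a step or more, 4085 (13.40%) were equal and 14825 (48.6%) were shorter. At least 1.5 times the DTP length was reached by 3541 pairs (11.6%), and 4966 (16.3%) were shortened by the same factor. The median length was 2800 bp in DTP and 2600 bp in DTP + TSA, and the total 108.1 Mb and 106.7 Mb. Borders moved little in most pairs: of 60962 borders 27.2% were at the same grid position and 54.9% within 200 bp of it. The median outward move and the median inward move were both 400 bp. The length shared by a pair was 76.5% of the pair's union at the median.

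The direction of change depended on where on the chromosome a domain lay. Distance was taken to the nearer chromosome end, or to the long-arm end on the acrocentric chromosomes. Of the 1453 pairs within 2 Mb of an end 61.9% (95% interval 59.3 to 64.4) were longer after TSA and 27.7% shorter. From 2 to 5 Mb 59.3% were longer, from 5 to 10 Mb 46.2% and from 10 to 20 Mb 38.9%. Beyond 20 Mb, where 21461 pairs lay, 33.8% (33.2 to 34.4) were longer and 51.9% shorter. The share of lengthened domains thus stood lower in each successive class, and the balance between longer and shorter pairs was reversed past 10 Mb. All intervals in parentheses are exact binomial (Clopper-Pearson), or from order statistics for medians. They cover counting error only, and neighbouring domains are not independent.

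**Figure D1:**
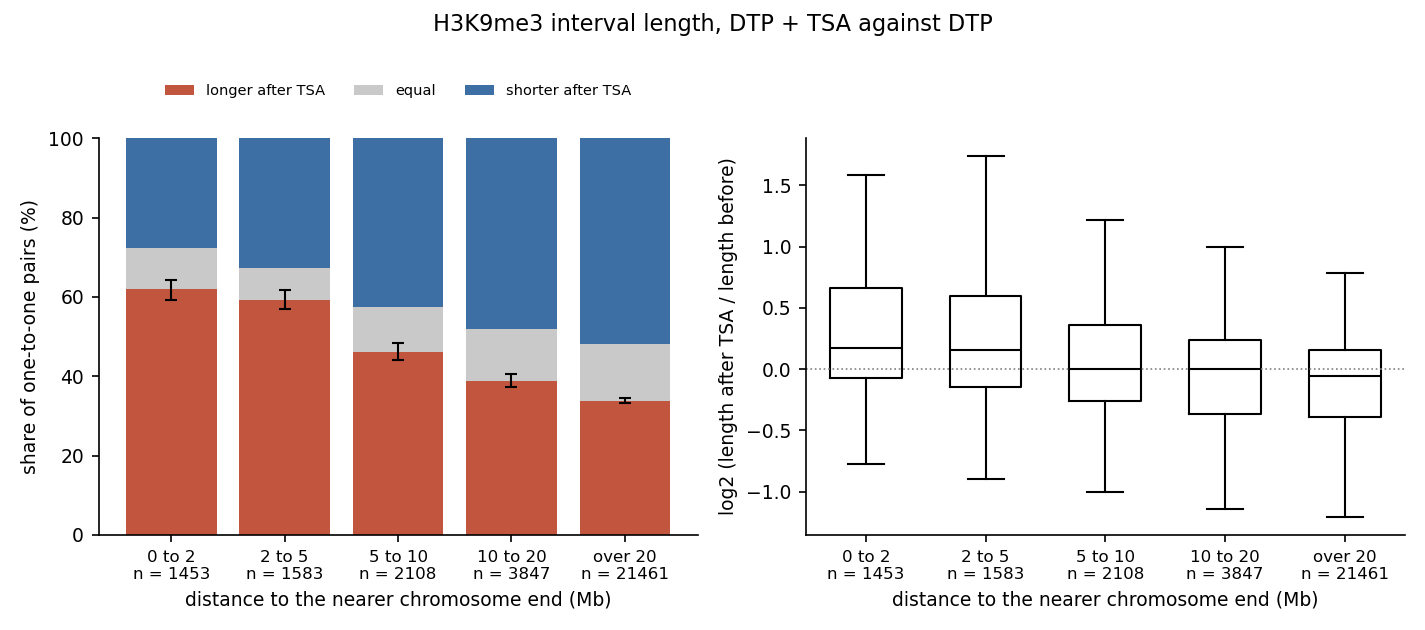
Left, share of one-to-one pairs longer (red), equal (grey) and shorter (blue) after TSA in 5 classes of distance to the nearer chromosome end, with 95% binomial intervals on the longer share. Right, log2 ratio of the DTP + TSA to the DTP length in the same classes, as median, quartiles (box) and 5th and 95th percentiles (whiskers); the median is 0.17 within 2 Mb and -0.06 beyond 20 Mb.

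Near chromosome ends the lengthening was large as well as frequent. In the 3036 pairs within 5 Mb of an end the summed length went from 12.9 Mb to 17.1 Mb, 1.32 times, whereas in the pairs beyond 20 Mb it went from 74.8 Mb to 69.1 Mb, 0.92 times. Lengthening by at least 1.5 times was seen in 26.9% (25.3 to 28.5) of the former and 8.86% (8.49 to 9.25) of the latter. An outward border moved by 800 bp at the median within 5 Mb and by 400 bp beyond 20 Mb. The growth was on both sides of a domain. Within 5 Mb the border facing the chromosome end lay further out in 49.97% of pairs and the border facing the interior in 51.1%. Beyond 20 Mb the same shares were 29.4% and 29.98%. No side was favoured beyond these intervals (48.2 to 51.8 and 49.3 to 52.9 near ends).

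The contrast between ends and interior was present on every chromosome that could be compared. On 23 of 23 chromosomes the share of longer pairs was higher within 5 Mb of an end than beyond 20 Mb. Chromosome 22 had the highest share near its end, 77.8% against 48.1% beyond 20 Mb. Chromosome 20 had the smallest gap, 56.6% against 50.0%, and chromosome X the lowest share near its ends, 39.8% against 30.1%. The median change in mean-value percentile was also higher near the ends on all 23.

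**Figure D2:**
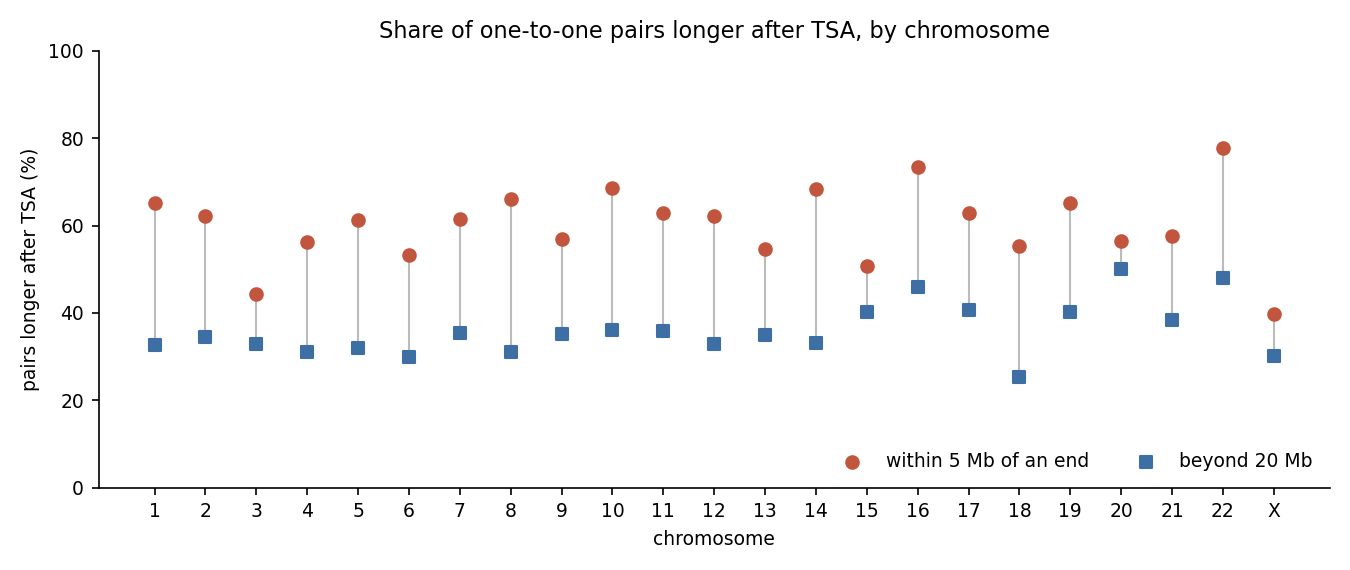
Share of one-to-one pairs that were longer after TSA on each chromosome, within 5 Mb of a chromosome end (red circles) and beyond 20 Mb of an end (blue squares). The circle lies above the square on all 23 chromosomes, with shares of 39.8% to 77.8% near ends and 25.3% to 50.0% beyond 20 Mb.

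Single chromosome ends differed from each other. Of 41 ends, each taken as its outer 5 Mb, 34 had more longer than shorter pairs. The share of longer pairs was 81.9% (72.6 to 89.1, n = 94 pairs) at the end of 16q, 77.8% at 22q and 77.6% at 1p. The 7 ends with more shorter pairs were 3p, 6p, 9p, 18p, 20p, Xp and Xq, at 35.0% to 42.2% longer. Those of 3p and Xp held only 11 and 20 pairs. In windows of 1 Mb with at least 10 pairs, longer pairs were the more frequent in 118 of 150 windows within 5 Mb of an end and in 193 of 1051 beyond 20 Mb. The ends and windows were examined singly after the classes had been seen.

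Giemsa stain, which separates light, gene-rich bands from dark, gene-poor ones, varied with the outcome too, and ends differed from the interior within bands of 1 stain. Longer pairs made up 41.6% (40.8 to 42.4) in the unstained bands (gneg) and 41.7% (39.8 to 43.6) in the lightest stained ones (gpos25). The share was 35.5% in gpos50, 32.5% in gpos75 and 30.60% (29.25 to 31.98) in the darkest bands (gpos100). Within gneg bands the share was 61.2% (59.2 to 63.1) within 5 Mb of an end and 35.6% (34.6 to 36.5) beyond 20 Mb. In gpos50 bands these shares were 53.2% (44.6 to 61.6, n = 141) and 32.6%. Beyond 20 Mb the stains from gneg to gpos100 ranged only from 30.7% to 35.6%, a narrower spread than that between ends and interior within gneg. Pairs in the darkest bands near ends were too few to compare, with 1 within 5 Mb.

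Among bands with at least 50 pairs, chosen after their values were seen, 47 of 198 had more longer than shorter pairs and 147 more shorter. The highest shares of longer pairs were in 11p15.5 at 79.4% (67.3 to 88.5, n = 63), 12q24.33 at 76.7% (65.4 to 85.8, n = 73) and then in 8q24.3. All 3 are the outermost bands of their arms. The lowest was in 5q14.3, a dark band in the middle of its arm, at 17.6% (11.4 to 25.4, n = 125).

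Bands known for clustered or silenced gene families were taken from a fixed list. They differed in their share of longer pairs, which was 38.0% over all pairs. The 6 bands of chromosome 19 that hold most of its KRAB zinc finger genes, transcriptional repressors whose own clusters carry H3K9me3, had 46.3% (41.8 to 50.9) longer and 42.4% shorter pairs, with a total length 1.035 times that of DTP. They spread from 69.4% longer in 19q13.43, which lies at the chromosome end, and 61.1% in 19p13.2 to 40.7% in 19p12 and 32.22% in 19q13.12. The other bands of chromosome 19 stood at 55.7% (51.1 to 60.2). The 3 bands of imprinted clusters, where only 1 parental copy is expressed, had 63.1% (53.9 to 71.7) of 122 pairs longer and also differed from one another. Longer pairs made up 79.4% of 63 pairs in 11p15.5, the band of IGF2 and H19, which lies at a chromosome end. The shares were 62.5% of 24 pairs in 14q32.2, the band of DLK1 and MEG3, and 34.3% of 35 in 15q11.2, the band of SNRPN.

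The olfactory receptor bands, which hold sensory receptor genes silent outside the nose, had 41.3% (34.6 to 48.2) longer pairs. The protocadherin band 5q31.3, site of clustered neuronal adhesion genes, had 48.8% (37.7 to 60.0) of 84 longer. The 4 bands of the HOX clusters, genes that pattern the body axis, had 32.9% (26.9 to 39.3) longer. Among these the HOXC band 12q13.13 stood at 64.3% of 28 pairs and the HOXA band 7p15.2 at 25.5% of 47. The intervals of the olfactory receptor, protocadherin and HOX bands all held the share over all pairs, 38.0%. The outermost bands of the 41 arms together stood at 60.5% of 2632 pairs, and chromosome X at 32.17% (29.71 to 34.71) of 1377. The bands describe surroundings of genes, since no hg19 gene positions were used here.

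The share of longer pairs by length class differed between ends and interior. Pairs were classed by the mean of their 2 lengths, because a class cut on 1 library alone moves toward the average in the other: pairs of up to 1 kb in DTP were longer after TSA in 60.4%, and pairs of up to 1 kb in DTP + TSA in only 12.8%. By mean length, the share of longer pairs within 5 Mb of an end was 33.3% up to 1 kb, 45.7% from 1 to 2 kb, 54.7% from 2 to 4 kb, 67.9% from 4 to 8 kb, 80.1% from 8 to 16 kb and 88.9% (79.3 to 95.1, n = 72) over 16 kb. Beyond 20 Mb it stayed between 31.4% and 44.2% in all 6 classes, with 37.7% (25.6 to 51.0, n = 61) over 16 kb. Near ends the share was thus highest in the classes of greatest mean length. That mean includes the length after TSA, so a strongly lengthened pair counts as long and part of this rise can be built in. Over all pairs, those over 16 kb were longer in 66.0% by mean length and in 46.7% by DTP length. The class up to 1 kb, which a strongly lengthened pair leaves, showed no difference between ends and interior beyond counting error (33.3%, 23.9 to 43.9, against 31.4%, 28.4 to 34.6).

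The largest changes of length showed the same geography. The 3 largest gains all lay within 3 Mb of a chromosome end. In 2q37.3 an interval of 11.8 kb at chr2:241716601-241728400 became 62.8 kb at chr2:241670401-241733200, with its summit only 128 bp away. In 20q13.33 one of 1.0 kb at chr20:61702001-61703000 became 34.8 kb at chr20:61689801-61724600, with a summit-value percentile of 92.6 after TSA. In 22q13.32 one of 5.6 kb at chr22:49014801-49020400 became 38.2 kb at chr22:49013801-49052000. None of these overlapped a parental interval. The 3 largest losses were smaller and lay in the interior. The DTP intervals chr5:43455401-43475400 in 5p12, chr2:132820601-132837600 in 2q21.2 and chr12:38026601-38041000 in 12q11 were left with 6.2, 3.8 and 3.2 kb, or 0.31, 0.22 and 0.22 times their length. Those in 5p12 and 2q21.2 overlapped a parental interval and that in 12q11 did not.

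Joining of neighbouring domains was concentrated near chromosome ends, and division was not. Joined groups were 6.41% (5.62 to 7.28) of the groups within 5 Mb of an end and 1.97% (1.80 to 2.16) of those beyond 20 Mb. Divided groups were 4.26% (3.61 to 4.99) and 4.83% (4.56 to 5.11). Hence joined groups outnumbered divided ones near ends, 221 to 147, and beyond 20 Mb divided ones outnumbered joined ones, 1119 to 457. Put the other way, 26.95% of the joined groups lay within 5 Mb of an end, compared with 9.66% of the divided groups and 9.97% of the pairs. These shares are per group, and neither length nor spacing of domains was held fixed. The median DTP length of pairs was 3400 bp within 5 Mb of an end and 2800 bp beyond 20 Mb. The DTP gap closed in a joined group and the gap opened in a divided one were both 1000 bp at the median. Joined groups went from 7.91 to 10.0 Mb in length, 1.27 times, and divided groups from 14.10 to 12.13 Mb, 0.86 times.

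The longest DTP domains were the least likely to stay single. Of the 395 DTP intervals over 16 kb 394 were shared, but only 31.0% of these were in one-to-one pairs, with 29.9% divided and 26.9% in groups of several intervals on both sides. Of the shared DTP intervals of 2 to 4 kb 94.1% were in pairs. These shares describe the lists and were not set against a rate per kb. By band, 19p12 held the most groups of both kinds, 32 joined and 28 divided of 247. The centromeric neighbour 11p11.12 had 13 divided of 45.

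The groups with the most pieces illustrate both outcomes. The 3 joined groups with the most DTP intervals all lay in 12q24.33, within 1 Mb of the long-arm end of chromosome 12. At chr12:132832001-132946200, 7 DTP intervals with 14.4 kb of gaps among them became 1 interval of 114.2 kb, whose mean value stood at percentile 92.9 where the DTP pieces averaged 68.7 by length. At chr12:133472601-133548800, 6 intervals became 1 of 75.2 kb, with the highest summit of the 6 kept to the base pair and the mean-value percentile at 82.9 before and 94.3 after. At chr12:133658001-133684000, 5 became 1 of 24.0 kb, and the percentile was lower, 45.5 before and 39.3 after. The divided groups with the most DTP + TSA pieces lay in centromeric bands. In 5p11 an interval of 153.0 kb at chr5:46118401-46271400 became 9 with 8.0 kb of gaps, and the mean-value percentile went from 62.4 to a length-weighted 27.6. In 11q11 one of 52.0 kb at chr11:54935001-54987000 became 7, and a second interval of 5p11, at chr5:46366001-46405600, became 6. In the divided groups the gaps were narrow against the domain, so most of the DTP length was still covered.

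**Figure D3:**
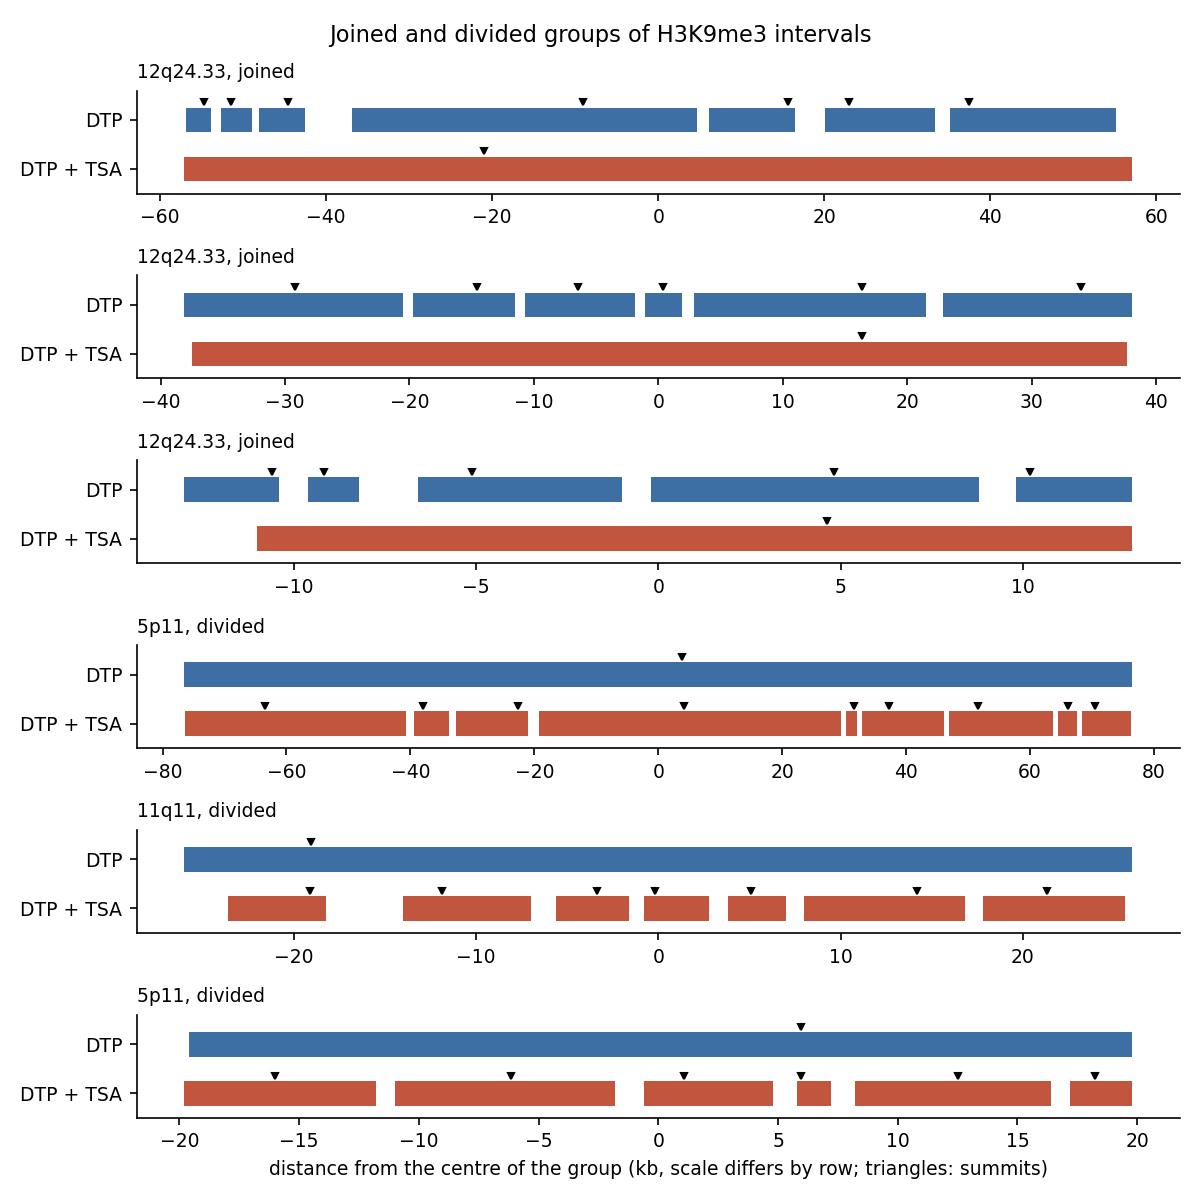
DTP intervals (blue) and DTP + TSA intervals (red) in the 3 joined and the 3 divided groups with the most pieces, drawn to scale in kb from the centre of each group, with triangles at the summits. In the 12q24.33 groups 7, 6 and 5 blue blocks lie over 1 red block, and in the 5p11, 11q11 and 5p11 groups 1 blue block lies over 9, 7 and 6 red blocks.

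Summits kept their places in most pairs. The 2 summits of a pair were 128 bp apart at the median, 61.0% were at most 200 bp apart and 11.8% over 1 kb. In 98.1% of pairs the DTP summit lay inside the DTP + TSA interval. Displacement was smaller the higher the summit ranked. With summit-value percentiles averaged over the libraries, the median distance was 336 bp in the lowest class (percentiles 0 to 25), 192 bp at percentiles 25 to 50, 128 bp at 50 to 75, 80 bp at 75 to 90, 48 bp at 90 to 99 and 32 bp in the top 1%. Summits over 1 kb apart made up 18.0% of the lowest class and 2.67% of the top 1%. Values came in bins of about 32 bp, so the strongest domains held their summit to within about a bin.

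**Figure D4:**
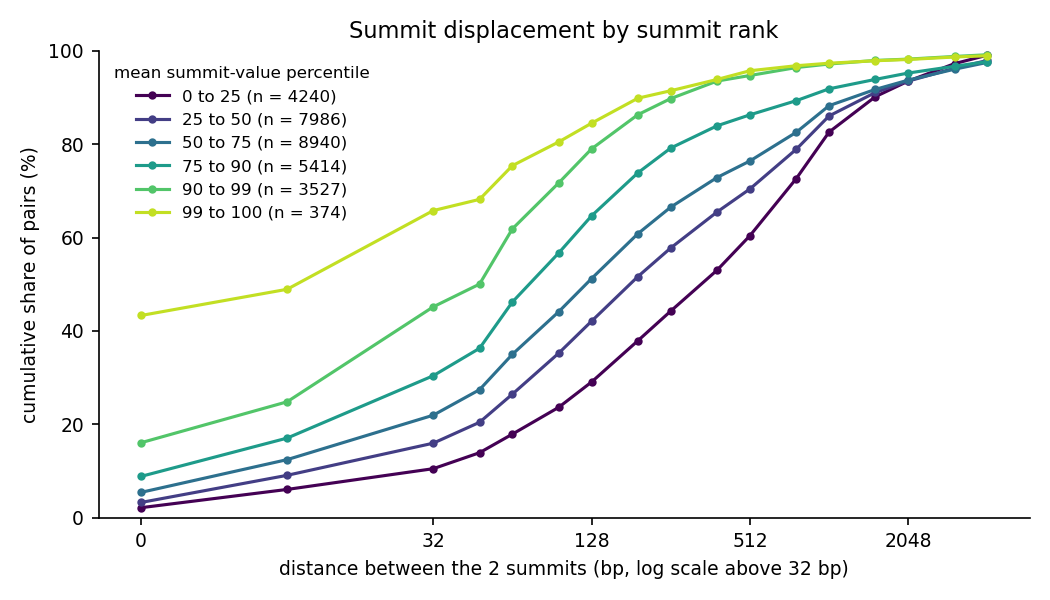
Cumulative share of one-to-one pairs whose summits lay at most a given distance apart (bp, log scale above 32 bp), for 6 classes of summit-value percentile averaged over both libraries. The curves are ordered by rank up to 512 bp, with medians from 336 bp in the lowest class to 32 bp in the highest.

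Position on the chromosome bore little on the summits. The median distance was 112 bp within 5 Mb of an end and 128 bp beyond 20 Mb, with 14.1% and 11.6% over 1 kb. Near ends the summit moved toward the end in 45.6% of pairs and away from it in 45.3%. Summits over 1 kb apart were 2.43% of pairs of 1 to 2 kb mean length and 25.3% of pairs of 4 to 8 kb. Pairs of 1 to 2 kb leave little room for such distances, so this contrast is largely set by the cutoff. Relative to the pair's mean length, the median distance was 6.4% at 1 to 2 kb and 3.93% at 4 to 8 kb. The 3 largest displacements were inside long domains with nearly unmoved borders. They were 39.6 kb within chr10:38771601-38819000 in 10p11.1, 31.4 kb within chr19:24455201-24503600 in 19p11 and 25.2 kb within chr14:104686201-104721000 in 14q32.33. Their ranks did not move alike. The mean-value percentile was 96.3 in DTP and 92.9 after TSA in 10p11.1, and 63.0 and 89.7 in 14q32.33. In 19p11 it was 67.8 in DTP and changed by -35.8 points.

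The order of domains by strength was largely kept. Across pairs Spearman's rho between the libraries was 0.71 for the mean value, 0.76 for the summit value and 0.75 for length (n = 30481 pairs from 2 libraries, a description). Of the pairs in the top 10% of DTP by summit value 81.0% were in the top 10% of DTP + TSA, and of those in the top 10% of DTP + TSA 74.7% had been there in DTP. By mean value these shares were 71.1% and 67.8%. The mean-value percentile was higher by over 10 points in 7152 pairs (23.5%) and lower by over 10 points in 11123 (36.5%). For the summit value these counts were 6075 (19.9%) and 10694 (35.1%). Over all pairs the median change was -2.22 points for the mean value and -2.47 for the summit value, the background against which classes are read.

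The rank changes of domains near chromosome ends lay above those of domains in the interior. The median change in mean-value percentile was 3.08 points (2.35 to 3.82) within 5 Mb of an end and -4.11 points (-4.47 to -3.76) beyond 20 Mb. For the summit value it was 1.83 (1.31 to 2.35) and -4.35 (-4.60 to -4.07). The size depended on the ranking used, from 1.41 to 5.76 points near ends and from -6.51 to -1.63 beyond 20 Mb, with the same signs. Near ends 36.9% of pairs were higher by over 10 points in mean value and 20.4% lower, and beyond 20 Mb 20.5% and 39.9%. Into the top 10% by summit value 250 pairs within 5 Mb of an end entered and 94 left, where 1136 entered and 787 left over all pairs. By mean value 234 entered and 126 left near ends, of 1478 and 1263 over all pairs, and in the top 1% by mean value the numbers near ends were 22 and 20. Pairs with both borders unmoved, in which the values cover the same bases, gave 0.13 points (0.00 to 1.45, n = 153) near ends and -9.29 (-10.6 to -7.94, n = 1868) beyond 20 Mb. The difference between ends and interior was thus present with borders held fixed, while the change near ends was close to 0 there.

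Lengthening and rank went weakly in opposite directions for the mean value and weakly together for the summit value. Across pairs, rho between the change in length and the change in percentile was -0.23 for the mean value and 0.21 for the summit value. All longer pairs had median changes of -4.81 and 0.15 points. Pairs at least 1.5 times longer had a median change of -7.40 points in mean value and 3.43 in summit value. Pairs shortened by that factor had 7.53 and -7.64. The mean value is taken over the interval's own length, so the mean value and the length of 1 interval are not separate measures. The 3 largest rises in mean-value percentile were all shortened intervals. In 6p22.3 an interval of 4.6 kb at chr6:25150201-25154800 became 1.6 kb and went from percentile 3.8 to 92.4. The other 2 were in 5q14.3, from 4.0 to 0.2 kb, and 16p11.2, from 7.0 to 1.8 kb, with summits at the same base. The 3 largest falls, in 1q41, 6p22.3 and 11p15.5, were lengthened from 1.0, 0.8 and 0.6 kb to 3.4, 2.4 and 2.0 kb.

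Rank change had a dip around 6 kb, spread over a range of lengths. By mean length beyond 20 Mb of an end, it was -12.2 points at 5.4 to 5.8 kb. It was lowest, -17.97, at 6.2 to 6.6 kb and stood at -12.4 at 7.0 to 7.4 kb. The class near 6 kb was already known from the lengths of these lists and was examined here for rank. In pairs of 5.8 to 6.2 kb in both libraries (n = 536) the median mean-value percentile was 69.8 in DTP and 45.1 in DTP + TSA, and the median change was -22.2 points (-24.0 to -20.6). In 79.5% of them it was lower by over 10 points. Pairs of 4.8 to 5.2 kb in both libraries had a median change of -3.33 points (-7.51 to -0.50, n = 242) and pairs of 6.8 to 7.2 kb -14.8 (-17.3 to -10.8, n = 177). Domains near 6 kb thus lost more rank than shorter and longer neighbours, with length held constant. By summit value the drop was -12.2 points, against -1.52 and -5.01 in the flanking classes.

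**Figure D5:**
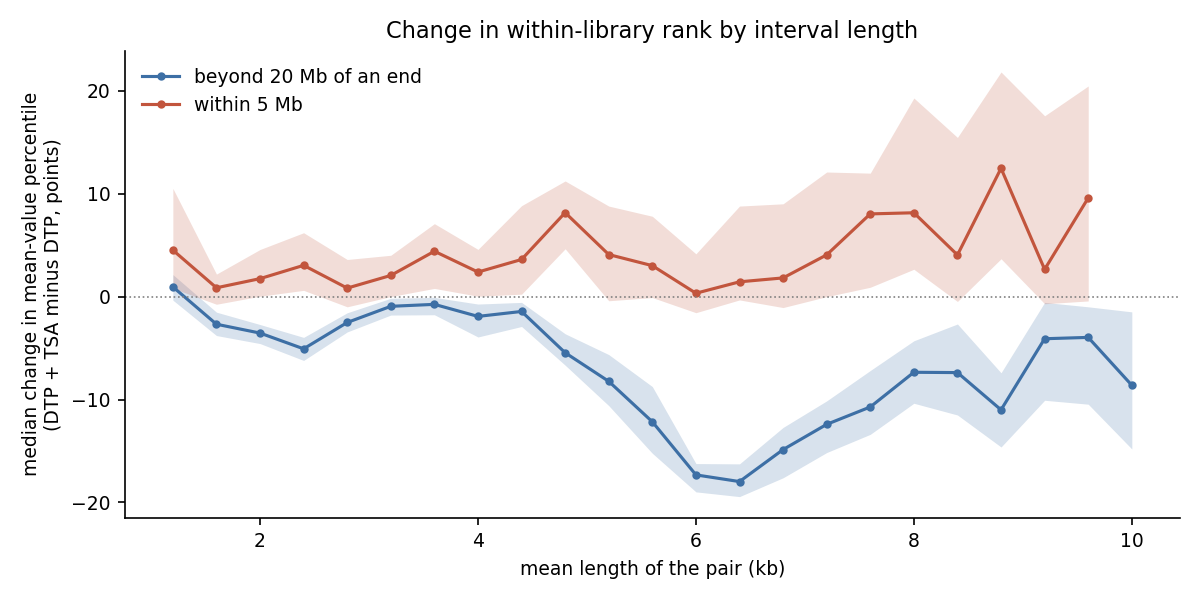
Median change in mean-value percentile (DTP + TSA minus DTP, points) by mean length of the pair in steps of 0.4 kb, beyond 20 Mb of a chromosome end (blue) and within 5 Mb (red), with 95% order-statistic intervals shaded. Beyond 20 Mb the line reaches -17.3 at 5.8 to 6.2 kb and -17.97 in the next step, and the red line stays above 0 at every length shown.

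The drop near 6 kb was larger in the interior of chromosomes than near ends. The flanking lengths, cut in both libraries, also stood lower in the interior than over all pairs, with overlapping intervals. Beyond 20 Mb of an end pairs of 4.8 to 5.2 kb changed by -8.33 points (-12.3 to -3.19, n = 167). Those of 6.8 to 7.2 kb changed by -16.5 (-20.6 to -14.8, n = 122). Pairs near 6 kb in both libraries changed by -22.8 points (-25.3 to -21.4, n = 431) beyond 20 Mb of an end and by -9.21 (-20.5 to 1.61, n = 37) within 5 Mb, where the few pairs leave a wide interval. The drop near 6 kb was present in pairs without a parental counterpart, at -24.8 (-25.9 to -22.3, n = 270). In those with one it was -20.1 (-22.12 to -17.03, n = 266). Domains near 6 kb also broke up more often than shorter ones. Of the shared DTP intervals of 5.8 to 6.2 kb 16.84% (15.23 to 18.54) were divided, against 3.87% (2.92 to 5.02) at 4.8 to 5.2 kb and 13.71% (11.65 to 15.98) at 6.8 to 7.2 kb. In pairs of 5.8 to 6.2 kb in both libraries summits were over 1 kb apart in 35.1% (31.0 to 39.3). This share was 20.7% (15.7 to 26.3) in pairs of 4.8 to 5.2 kb and 28.8% (22.3 to 36.1) in pairs of 6.8 to 7.2 kb, so it was above that of the shorter class and not separated from that of the longer one. Repeat annotation of hg19 was not used here.

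Presence of a domain in parental cells went with a small difference in the share of longer pairs and a wider one in rank near ends. Of the pairs, 12021 overlapped a parental interval and 18460 did not. Longer pairs made up 39.3% (38.4 to 40.2) of the former and 37.1% (36.4 to 37.8) of the latter. Within 5 Mb of an end these shares were 61.1% (58.4 to 63.8) and 60.1% (57.8 to 62.4), and beyond 20 Mb 35.3% and 32.9%. In the share of longer pairs the 2 kinds thus differed far less from each other than either did between chromosome ends and interior. Lengthening by at least 1.5 times within 5 Mb of an end was seen in 23.63% (21.33 to 26.04) of pairs with a parental overlap and 29.3% (27.2 to 31.5) of those without. The median change in mean-value percentile there was 1.80 points (0.99 to 2.71) and 4.46 (3.45 to 5.82). The DTP medians from which they started were percentiles 73.3 and 53.1, and the part of starting rank in this difference was not tested.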

How the data were processed

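H3K9me3 ChIP-seq gave 1 deposited interval list per state. Per the file headers, a row has the borders, the summit with its value, the average value and a bin count. Both values are the authors' signal within the interval, and positions and bin counts are other deposited fields. The submitters' processing notes name BWA and SICER and the builds hg19 and dm3, with neither version nor role. The sources used here do not give the input, the calling threshold or any scaling. Depth is unknown, and a deeper library or another threshold can move borders, gaps and counts. Coordinates are 1-based.

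The members, classes and band lists were chosen with earlier results of these data known. Overlaps of at least 1 bp were gathered into connected groups. Distances and bands came from the hg19 cytobands in circlize 0.4.16 (R 4.3.3). Chromosome Y was left out of distance classes. Percentiles are mid-ranks within a full list. Named by rule were the 3 pairs with the largest gain and loss of length, summit distance, and rise and fall in mean-value percentile, and the 3 joined and 3 divided groups with the most pieces. The band lists were the outermost bands and those of zinc finger, olfactory receptor, HOX, protocadherin and imprinted genes. Python 3.11.15, numpy 2.4.6, pandas 2.3.3 and scipy 1.17.1 were used. The code was tested on simulated data, where 12 of 12 checks returned the known answer. With 1 library per state no test was run.
Alternatives were reciprocal overlap, merging within 5 kb, equal list sizes, removal of centromeric, variable and stalk bands or sex chromosomes, a 1.5-fold length rule and other ranks.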

Additional observations from a re-analysis of the deposited data

How the results depend on the processing

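The 9 main values were recomputed under 5 to 7 of 8 alternatives each, and no rank change turned its sign. Of the 54 recomputed values 28 stayed within the main value's counting interval (for numbers of groups, within 1.5 times) and 26 did not; the cause was not tested, except where the setting itself fixes it. The 6 kb rank change and its alternatives were added after seeing the data. With reciprocal overlap of at least 50% the share of longer pairs was 37.29%, and 55.25% within 5 Mb of an end, the rank change beyond 20 Mb was -5.06 points, and joined and divided groups numbered 0 and 0, since such an overlap pairs 1 interval with 1. With intervals within 5 kb joined first the longer shares were 39.28%, 63.56% within 5 Mb and 35.15% beyond 20 Mb, joined groups numbered 507 and divided ones 417, so that joined groups were then the more numerous. The summit distance was then 144 bp, and rank changes were 1.57 points within 5 Mb and -18.86 near 6 kb. With the same number of strongest intervals kept in both lists the longer share was 37.07%, and 32.70% beyond 20 Mb, with rank changes of 1.41 within 5 Mb, -6.51 beyond 20 Mb and -28.10 near 6 kb. Counting as longer only a length of at least 1.5 times gave 11.62%, 26.91% and 8.86%. Percentiles among shared intervals gave 5.76, -1.63 and -19.26, and rank by summit value 1.83 near ends and -12.23 near 6 kb. Removing centromeric, variable and stalk bands, or the sex chromosomes, moved none of the 9 beyond that interval. No paired analysis was possible because each state has 1 library and no result comes from a test. With depth unknown, a summit, border or gap near the calling threshold can differ between the lists without a change in the cells.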
